A study of Mus musculus with 5 samples.

Results

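The 10 cardiac transcription factor genes described here, 10 of the 19061 genes with a row in the files, were followed in hearts of calcineurin transgenic mice after JIB-04 (3 libraries) or vehicle (2 libraries). They were chosen by gene symbol: Gata4, Gata6, Nkx2-5, Tbx5, Tbx20, Hand2, Mef2a, Mef2c, Mef2d and Srf. All 10 were found and all 10 passed the filter on low counts. All the mice were of the C57BL/6 strain and carried a calcineurin transgene under a myosin heavy chain promoter, which is active in heart muscle cells, a model of cardiac hypertrophy. Both groups carry it, and no hearts without the transgene are analysed here. JIB-04 blocks histone demethylases of the Jumonji family and was given at 50 mg/kg from 4 weeks of age, 3 times a week, and the vehicle mice followed the same schedule. Hearts were taken at postnatal day 158 and their polyadenylated RNA was sequenced. The comparison asks whether long dosing with the inhibitor altered the transcript levels of the factors that build and maintain the heart muscle programme.

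These factors form the core of the cardiac gene programme. GATA zinc finger proteins, the homeodomain protein NKX2-5, T-box proteins, the basic helix-loop-helix protein HAND2 and the MADS-box proteins MEF2 and SRF bind neighbouring sites in heart gene enhancers and promoters and often act in pairs. In the hypertrophic heart several of them receive the calcineurin signal: calcineurin removes phosphate from NFAT proteins, which enter the nucleus and act with GATA4 and with MEF2, and in mice Hand2 itself has been described as an NFAT target in the failing heart. Much of this control acts on the proteins and not on their transcripts, which are all that was measured here.

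With JIB-04, Hand2 was the factor with the largest difference, at 91.0 ± 15.1 CPM in JIB-04 hearts against 116 ± 1.21 CPM in vehicle hearts (SD, n = 3 and n = 2). Tbx20 and Gata4 lay slightly higher in JIB-04 hearts, and the other 7 factors differed by less than the spread between libraries. None of the 10 factors passed the test over all genes, with limma, edgeR or limma-voom, each of which called 0% of genes, or with DESeq2, which called 0.594%. In 2 factors (Gata4 and Tbx20) every JIB-04 library lay above both vehicle libraries, and in 1 (Hand2) every JIB-04 library lay below them. Of all 14414 genes tested, 10.7% lay above and 12% below in the same way, or 22.8% together, beside 3 of the 10 factors. With values scaled to the library total, the same 3 factors were separate, while the numbers over all genes were 2215 above and 971 below, against 1549 above and 1736 below as deposited. The median of all genes was then 0.04. Of the 10 factors, 4 had positive and 6 negative log2 differences, against 46.9% positive and 53.1% negative over all genes. The median log2 difference of the 10 factors was -0.01, as was that of all genes tested, and their median absolute difference was 0.03 on the log2 scale against 0.08 for all genes tested.

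**Figure D1:**
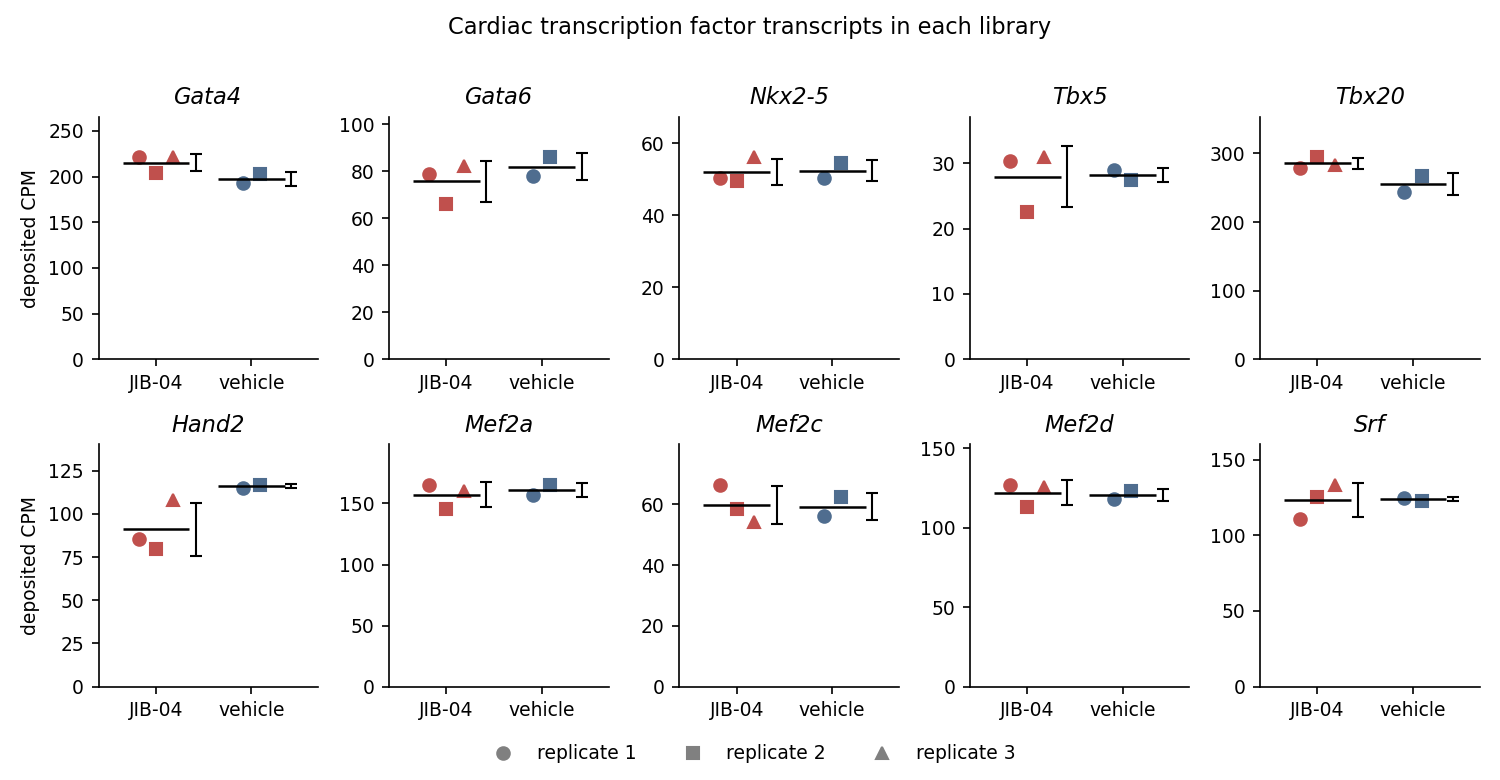
Each panel shows 1 factor, with deposited CPM on the vertical axis from 0, JIB-04 libraries on the left and vehicle libraries on the right; symbols mark the replicate number, the horizontal line the group mean and the bar beside it ± 1 SD. Hand2 lies between 79.5 and 108 CPM in JIB-04 hearts, below both vehicle hearts, while the groups of Gata4 and Tbx20 are separated the other way and those of the other 7 factors overlap.

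CPM here means reads on a gene relative to all reads of its library, as deposited, after a scaling by the authors that left column sums of 954981 to 1046902. Depth was 32152168 to 37002846 reads per library, and the least covered factor, Tbx5, had 840 to 1087 reads in each. Counting error was therefore at most 3.45% of any value. Each factor's own largest counting error, in percent, was below its spread (SD over mean) between JIB-04 libraries. Between the vehicle libraries the spread was below the counting error for Hand2 and Srf and above it for the other factors. The small vehicle SD of Hand2 and Srf therefore understates the error of their values. Log2 differences are JIB-04 minus vehicle on log2(CPM + 1), tested with limma across all genes, with a threshold of 0.05 on the Benjamini-Hochberg adjusted p. For single genes, the exact permutation test over the 10 ways to split 5 libraries cannot give a p below 0.1. The labels do not say that each library came from its own animal, so the p-values measure only the spread between these libraries. All 10 defining cardiomyocyte markers were abundant, at 603 CPM or more in every library. Of 7 atrial markers, Sln, Bmp10 and Myl7 were at no more than 0.21, 0.994 and 2.15 CPM in any library. Myl4 and Stard10 reached 11.9 and 9.70 CPM, Dkk3 53.4 CPM, and Nppa, which hypertrophic ventricles also express, lay at 963 to 1636 CPM. Ppp3ca, the calcineurin gene on which reads of the transgene can land, was at 4341 to 7275 CPM in JIB-04 hearts and at 6082 to 8022 CPM in vehicle hearts. One JIB-04 library, replicate 3, has a title with another spelling of the transgene, while its genotype label is that of the rest.

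The promoters of 4 factors are shown because they belong to members whose groups did not overlap (Hand2, Tbx20) or hold a site that the factor itself binds (Srf, Mef2a). Gata4, whose groups did not overlap either, is named without its promoter. Each is the RefSeq sequence of 250 bases before to 50 bases after the start site, build GRCm38.p6, written 5′ to 3′ on the strand of the gene. They lie at chr8:57320733-57321032 (Hand2, plus strand), chr9:24774254-24774553 (Tbx20, minus strand), chr17:46556113-46556412 (Srf, minus strand) and chr7:67372809-67373108 (Mef2a, minus strand). Capitals mark GATA and NK2 sites in Hand2, CArG boxes and an opposite-strand TATA box match in Srf, and a MEF2 site and a T-box site in Mef2a. In Tbx20 none of the motifs searched was found. E-boxes (CANNTG) were searched too and are left in lower case, since 72.3% of all windows hold one.
Hand2: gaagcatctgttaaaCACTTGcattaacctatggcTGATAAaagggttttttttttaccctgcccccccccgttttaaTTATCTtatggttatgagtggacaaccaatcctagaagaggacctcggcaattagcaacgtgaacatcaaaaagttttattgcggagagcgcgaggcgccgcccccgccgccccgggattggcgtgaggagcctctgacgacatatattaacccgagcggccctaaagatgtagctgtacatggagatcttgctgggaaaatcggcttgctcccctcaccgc
Tbx20: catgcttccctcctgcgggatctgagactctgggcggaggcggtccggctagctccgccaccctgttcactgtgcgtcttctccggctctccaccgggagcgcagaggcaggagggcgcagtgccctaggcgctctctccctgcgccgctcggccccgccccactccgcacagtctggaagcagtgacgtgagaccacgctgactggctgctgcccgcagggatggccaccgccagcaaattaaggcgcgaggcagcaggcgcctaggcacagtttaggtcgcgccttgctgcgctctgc
Srf: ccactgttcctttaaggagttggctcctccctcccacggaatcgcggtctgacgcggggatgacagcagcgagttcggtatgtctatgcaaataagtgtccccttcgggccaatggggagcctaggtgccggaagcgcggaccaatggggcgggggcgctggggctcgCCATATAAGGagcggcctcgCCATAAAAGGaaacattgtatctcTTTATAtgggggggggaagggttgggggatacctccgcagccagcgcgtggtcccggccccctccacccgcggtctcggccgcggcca
Mef2a: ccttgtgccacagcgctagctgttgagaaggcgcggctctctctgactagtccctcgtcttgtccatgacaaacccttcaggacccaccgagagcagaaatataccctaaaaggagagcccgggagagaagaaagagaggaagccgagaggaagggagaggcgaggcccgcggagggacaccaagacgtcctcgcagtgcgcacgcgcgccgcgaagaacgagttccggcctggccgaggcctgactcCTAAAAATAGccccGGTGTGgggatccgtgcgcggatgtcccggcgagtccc
The motifs were searched on both strands: GATA sites as AGATAA or AGATAG, or with TGATAA or TGATAG, the NK2 site as CAAGTG, T-box sites as GGTGTG or AGGTGT, the TATA box as TATAAA, and the CArG box and MEF2 site by their usual consensus. The 2 T-box patterns can overlap each other, and an NK2 site is also an E-box. Distances run to the first base of the site on the gene's strand. The Hand2 window held GATA sites 215 and 172 bases before the start site and an NK2 site 235 bases before it. GATA sites were present in 29.8% and the NK2 site in 13.6% of 32851 promoter windows. The Srf window held CArG boxes, the sites that SRF itself binds, 82 and 62 bases before the start. It also held a TATA box match 38 bases before the start, with TATAAA on the strand opposite to the gene. A CArG box was present in 1.63% of all windows and a TATA box in 13.6%. Windows of 7 of the 10 factors were searched, 9 windows in all, and Gata4, Gata6 and Tbx5 were not among them. The window of Mef2a held a MEF2 site (3.19% of all windows) at its start. The Mef2a window held 27 CpG dinucleotides, that of Tbx20 26, that of Srf 25 and that of Hand2 17, against a median of 7 over all windows. Among the windows not shown, that of Mef2d held 24, that of Nkx2-5 9 and those of Mef2c 1, 10 and 4. These matches describe the letters in the windows and say nothing of binding.

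The GATA factors are zinc finger proteins that activate natriuretic peptide and contractile genes. Gata4, the partner of NFAT in the hypertrophic heart (chr14:63198915-63245260, minus strand, mm10), had 221, 204 and 221 CPM in the JIB-04 hearts and 192 and 203 CPM in the vehicle hearts. The groups were separate, but only by the gap between JIB-04 replicate 2 and vehicle replicate 2, which was under 1 CPM. The log2 difference was 0.12 (SE 0.07, 95% interval -0.04 to 0.28, limma adjusted p = 0.821; exact permutation p = 0.2), a mean higher by 8.86%. Gata6, its close relative with partly shared functions (chr18:11052510-11085635, plus strand), had 79.0, 65.9 and 82.3 CPM in JIB-04 hearts and 78.0 and 85.9 CPM in vehicle hearts. These groups overlapped, and the low value was that of JIB-04 replicate 2. The log2 difference of Gata6 was -0.12 (SE 0.11, interval -0.37 to 0.13, limma adjusted p = 0.866).

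Within each library the ratio of Gata4 to Gata6 does not depend on how the libraries were scaled. It was 2.80, 3.09 and 2.69 in JIB-04 hearts and 2.47 and 2.37 in vehicle hearts, so the groups did not overlap. The mean ratio was 18.4% higher in JIB-04 hearts (2.86 ± 0.21 against 2.42 ± 0.07, SD). Counting error on 1 ratio was at most 2.32%. How often other gene pairs separate in this way was not counted, while 22.8% of single genes did. The ratios were chosen after the values were seen and are given without a test.

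NKX2-5 is the homeodomain factor of heart and conduction system development. Nkx2-5 (chr17:26838665-26841565, minus strand) had 50.4, 49.6 and 56.1 CPM in JIB-04 hearts and 50.3 and 54.4 CPM in vehicle hearts. The values of both groups were interleaved. The log2 difference was -0.01 (SE 0.08, 95% interval -0.20 to 0.18, limma adjusted p = 0.987).

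The T-box factors TBX5, mutated in Holt-Oram syndrome in humans, and TBX20, needed in mice to keep adult heart muscle functioning, bind related sites. Tbx20 (chr9:24720812-24774303, minus strand) had 279, 294 and 282 CPM in JIB-04 hearts and 244 and 267 CPM in vehicle hearts. Every JIB-04 library was above both vehicle libraries, with a mean higher by 11.7%. The log2 difference was 0.16 (SE 0.07, interval -0.01 to 0.33, limma adjusted p = 0.793), and the exact permutation p was 0.1, the smallest possible with 5 libraries. It was 0.09 without vehicle replicate 1, against 0.23 without vehicle replicate 2. Tbx5 (chr5:119834663-119885218, plus strand) had 30.4, 22.5 and 30.9 CPM in JIB-04 hearts and 29.0 and 27.5 CPM in vehicle hearts. JIB-04 replicate 2 was the lowest of the 5 and the other JIB-04 libraries were the highest, so the groups overlapped (log2 difference -0.03, SE 0.14, limma adjusted p = 0.974). Without JIB-04 replicate 2 the difference of Tbx5 was 0.11.

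HAND2 is a basic helix-loop-helix factor needed for the right ventricle in mouse development. Hand2 (chr8:57320983-57324517, plus strand) had 85.3, 79.5 and 108 CPM in JIB-04 hearts and 115 and 117 CPM in vehicle hearts. The vehicle libraries were close together, and JIB-04 replicates 1 and 2 lay well below them, while JIB-04 replicate 3 lay just below. The log2 difference was -0.36 (SE 0.13, interval -0.66 to -0.06), with an unadjusted limma p = 0.0264 and an adjusted p = 0.748, and the exact permutation p was 0.2. At an unadjusted p under 0.05 it was 1 of 928 genes, or 6.44% of those tested (2.51% lower in JIB-04 hearts), and its absolute difference was larger than that of 94.4% of them. Hand2 was also the only factor at that level with edgeR (6.56% of all genes) and limma-voom (6.05%), while DESeq2 (5.58%) added Tbx20. Scaled to the library total, unadjusted limma p-values were 0.0182 for Gata4, 0.0193 for Tbx20 and 0.0424 for Hand2. Of all 14414 genes, 900 were then under 0.05, and the median log2 difference of all genes was 0.04, against -0.01 as deposited. With median-ratio factors, unadjusted limma p-values were 0.0438 for Tbx20 and 0.0309 for Hand2, beside 915 of all 14414 genes under 0.05. The unadjusted limma p of Hand2 was 0.0557 without JIB-04 replicate 1, 0.0541 without JIB-04 replicate 2, 0.0885 without vehicle replicate 1 and 0.104 without vehicle replicate 2, against 0.000822 without JIB-04 replicate 3. The difference of Hand2 was negative under all 15 alternative settings, from -0.49 to -0.27, but not all of these could change it. The filters on low values leave a log2 difference as it is. A block on the replicate number gave the same value as leaving out JIB-04 replicate 3. The annotation places exons of an opposite-strand gene, Hand2os1, over those of Hand2, and whether reads were counted by strand is not given in the sources used here, so reads of the pair may not be fully separated. The same holds for Gata6, Mef2a and Mef2d, each with exons of another gene on the opposite strand.

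MEF2 proteins are MADS-box factors held in check by class IIa histone deacetylases and released by calcium signals. Mef2a (chr7:67231163-67372858, minus strand), whose loss in mice damages heart mitochondria, had 165, 146 and 160 CPM in JIB-04 hearts and 157 and 165 CPM in vehicle hearts. Mef2d (chr3:88142395-88169167, plus strand), needed for stress-driven heart growth in mice, had 127, 113 and 126 CPM in JIB-04 hearts and 118 and 123 CPM in vehicle hearts. Mef2c (chr13:83504034-83667079, plus strand), needed for looping of the embryonic heart in mice, had 66.5, 58.6 and 54.3 CPM in JIB-04 hearts and 56.0 and 62.3 CPM in vehicle hearts. In all 3 the groups overlapped. The log2 differences were -0.03 for Mef2a (SE 0.07, limma adjusted p = 0.936), 0.01 for Mef2d (SE 0.07, 0.976) and 0.01 for Mef2c (SE 0.10, 0.987). Of the reads on the 3 genes together, Mef2a took 46.3 ± 0.6% in JIB-04 hearts and 47.2 ± 0.3% in vehicle hearts, and Mef2d took 36.0 ± 0.9% and 35.4 ± 0.3% in the same order. The ratio of Mef2d to Mef2a was 0.769, 0.776 and 0.786 in JIB-04 hearts and 0.753 and 0.749 in vehicle hearts. The groups were separate, with means 3.52% apart, beside a counting error of up to 2.15% on 1 ratio. This ratio was not tested, and how often other gene pairs separate was not counted.

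SRF binds CArG boxes and drives muscle and growth-response genes according to its cofactor. Srf (chr17:46546839-46556162, minus strand) had 111, 125 and 133 CPM in JIB-04 hearts and 125 and 123 CPM in vehicle hearts. The JIB-04 libraries lay on both sides of the vehicle libraries, which were nearly equal. The log2 difference was -0.01 (SE 0.09, fold interval 0.862 to 1.15, limma adjusted p = 0.990).

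**Figure D2:**
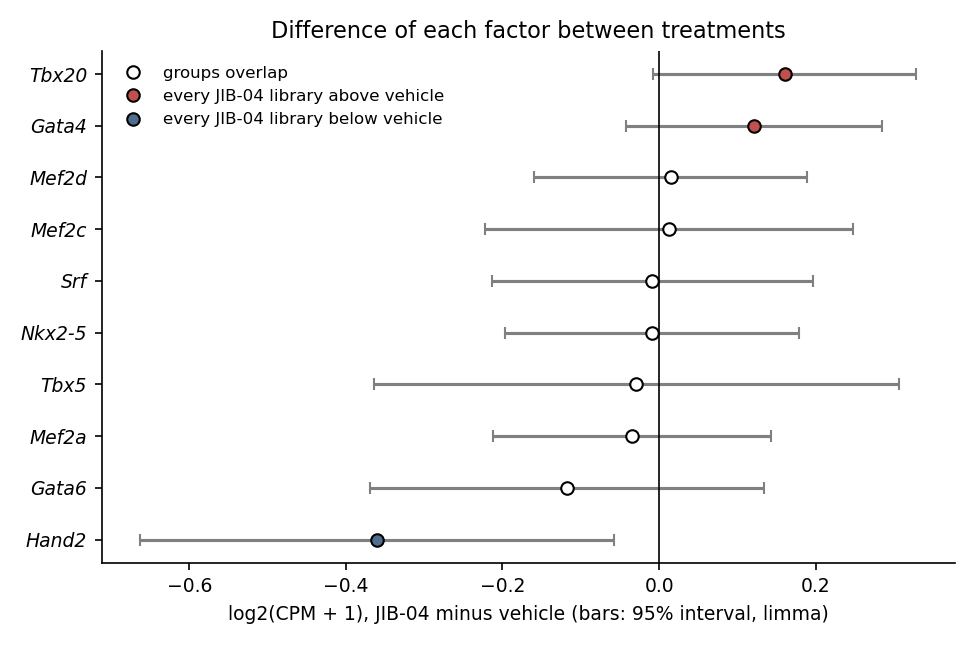
The horizontal axis is the log2(CPM + 1) difference, JIB-04 minus vehicle, of each factor, with 95% intervals from limma; filled points mark factors whose groups did not overlap. The interval of Hand2, from -0.66 to -0.06, lies below 0 before adjustment over all genes, and the intervals of the other 9 factors include 0.

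For the 7 factors with overlapping groups the unadjusted 95% fold interval was widest for Tbx5 (0.777 to 1.24). It was narrower for the others, such as Gata6 (0.774 to 1.10) and Mef2d (0.896 to 1.14). A p above the threshold does not show that these levels were equal. In deposited CPM, JIB-04 replicate 2 was the lowest of the 5 libraries for 6 of the 10 factors (Gata6, Nkx2-5, Tbx5, Hand2, Mef2a and Mef2d) and the highest for Tbx20. Its column sum was the smallest, at 954981, and the count of factors depends on the scaling. Over all genes tested, JIB-04 replicate 2 was the lowest library for 29.5%. The cardiomyocyte markers summed to 63741, 52219 and 55493 CPM in JIB-04 hearts and to 60921 and 69072 CPM in vehicle hearts, and replicate 2 was the lowest there too. The sum of 10 fibroblast markers was 2517 to 3374 CPM in JIB-04 hearts and 2223 to 2524 CPM in vehicle hearts, and that of 10 macrophage markers was 234 to 379 CPM and 170 to 235 CPM in the same order. The sum of 8 lymphocyte markers was 5.2 to 7.08 CPM in JIB-04 hearts and 3.58 to 4.00 CPM in vehicle hearts, and that of 7 epicardial markers was 22.8 to 51.8 CPM and 16.6 to 23.9 CPM in the same order. Erythroid markers, with globin genes of identical reads entered once, summed to 898 to 1794 CPM in JIB-04 hearts and 2452 to 3753 CPM in vehicle hearts. The lymphocyte and erythroid sums did not overlap between the groups, and the others did. The endothelial, smooth muscle and Schwann cell sums overlapped as well. In bulk hearts, fewer cells of a type and less RNA per cell cannot be told apart, and the part of these shifts in the factors' values was not tested.

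The ratio of Tbx20 to Hand2 was 3.27, 3.70 and 2.61 in JIB-04 hearts and 2.12 and 2.29 in vehicle hearts. That of Gata4 to Hand2 was 2.59, 2.57 and 2.04 in JIB-04 hearts and 1.67 and 1.74 in vehicle hearts. Both ratios were separate between the groups, with means higher by 45.2% and 40.8% in JIB-04 hearts. They were picked after the values were seen because their parts lay on opposite sides. Their separation was therefore fixed by the values of the single factors and adds nothing to them. The ratio of Tbx20 to Tbx5, by contrast, overlapped, at 9.20, 13.1 and 9.15 in JIB-04 hearts and 8.41 and 9.72 in vehicle hearts, with JIB-04 replicate 2 alone far above the others.

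**Figure D3:**
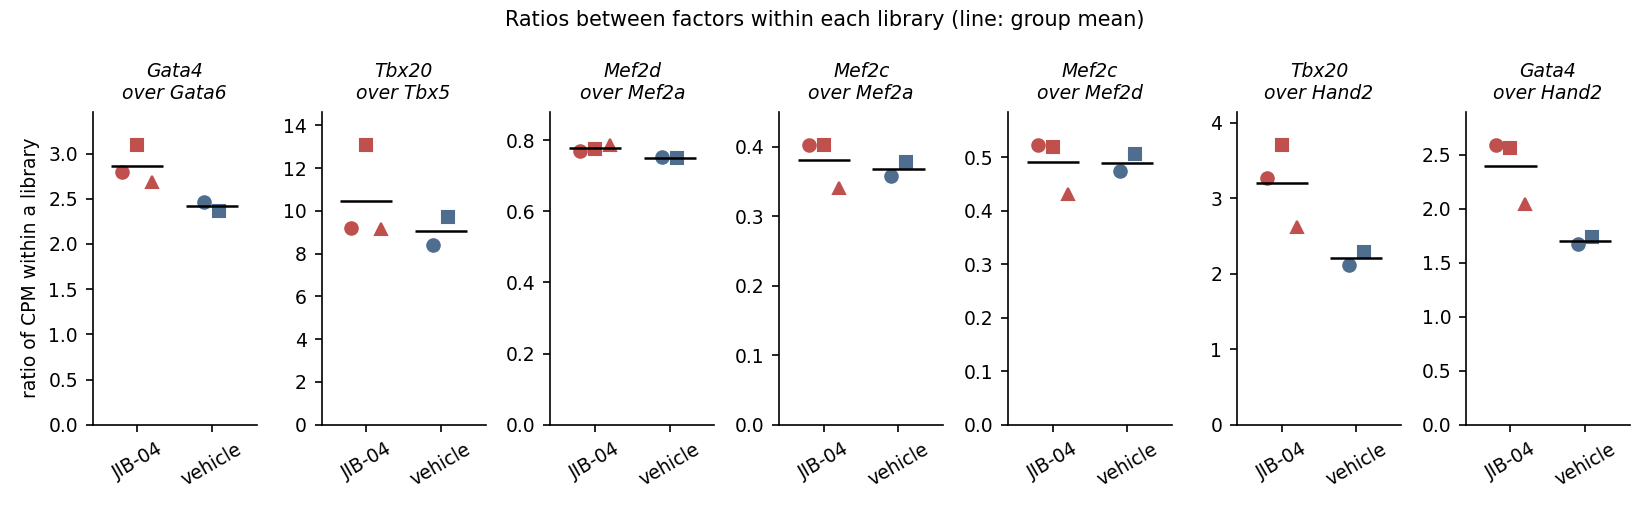
Each panel plots the ratio of the CPM of a pair of factors within a library, from 0, with JIB-04 libraries on the left, vehicle libraries on the right and lines at the group means. Gata4 over Gata6, Tbx20 over Hand2 and Gata4 over Hand2 are separate between the groups, Mef2d over Mef2a by a small margin, and the other 3 overlap.

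Per kilobase of exon, the 10 factors spanned a range of levels. Gata4 was the highest, at 55.2 ± 2.5 CPM per kb in JIB-04 hearts and 50.7 ± 2.0 in vehicle hearts. Next came Hand2, at 38.7 ± 6.4 and 49.4 ± 0.5 CPM per kb, and Srf, at 42.6 ± 3.9 and 42.8 ± 0.4 CPM per kb, in the same order of groups. These neighbours changed places: Hand2 was above Srf in both vehicle hearts and below it in all 3 JIB-04 hearts, though nearly level with it in JIB-04 replicate 3. Nkx2-5 followed at 30.3 ± 2.1 and 30.4 ± 1.7 CPM per kb, then Tbx20 at 23.8 ± 0.7 and 21.3 ± 1.4, and Mef2d at 20.4 ± 1.3 and 20.2 ± 0.6. Gata6, at 11.6 ± 1.3 and 12.6 ± 0.9 CPM per kb, and Mef2a, at 10.7 ± 0.7 and 10.9 ± 0.4, were close neighbours, and Tbx5 and Mef2c were the lowest, at 5.97 ± 1.0 and 6.04 ± 0.23 and at 3.81 ± 0.39 and 3.76 ± 0.28. Of the 45 pairs of factors, 44 stood in the same order in all 5 libraries, the exception being Hand2 and Srf. The lengths are those of all exons in the annotation and not of the transcripts in these hearts. With the longest transcript as the length, Mef2a stood at 29.0 CPM per kb, Mef2c at 9.43 and Gata6 at 21.7 in vehicle hearts, and 41 of the 45 pairs kept their order.

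**Figure D4:**
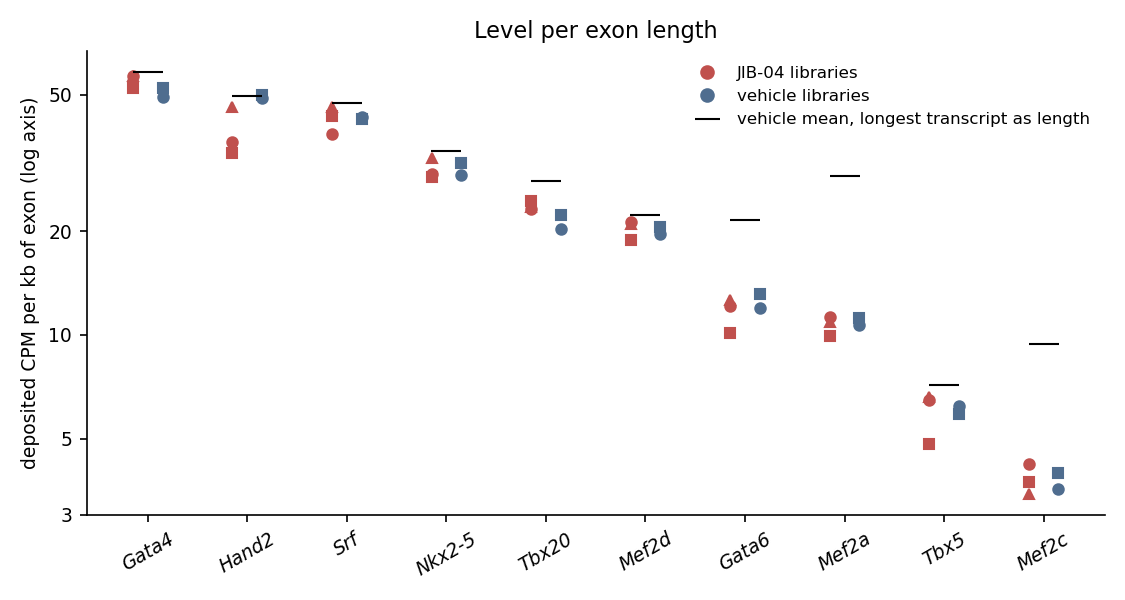
The vertical axis is deposited CPM per kilobase of exon, on a log scale, and each point is 1 library, JIB-04 on the left and vehicle on the right of each gene; the dash is the vehicle mean with the longest transcript as the length. Factors are ordered by their vehicle mean, from Gata4 to Mef2c, and the dashes of Mef2a, Mef2c and Gata6 lie far above their points.

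Partner factors were taken from a list of 34 genes, of which 29 were tested. None passed the threshold, 12 had positive and 17 negative log2 differences, and the median was -0.04, or 0.01 scaled to the library total and -0.01 without JIB-04 replicate 2. In 3 of the 29 every JIB-04 library lay above both vehicle libraries and in 4 below, shares close to those over all genes. Irx1, an Iroquois homeobox gene of the ventricle, had 6.96, 6.51 and 10.3 CPM in JIB-04 hearts and 10.5 and 12.1 CPM in vehicle hearts (log2 difference -0.48, SE 0.19, limma adjusted p = 0.752). Myocd, which encodes the SRF cofactor myocardin, had 66.5, 53.0 and 64.7 CPM in JIB-04 hearts and 69.9 and 75.9 CPM in vehicle hearts (-0.25, SE 0.11, limma adjusted p = 0.789). Zfpm2, the GATA cofactor known as FOG2, had 21.7, 21.2 and 19.8 CPM in JIB-04 hearts and 23.9 and 23.0 CPM in vehicle hearts (-0.16, SE 0.08). Every JIB-04 library of these 3 genes was below both vehicle libraries. Tbx18, a T-box gene of epicardium and sinus horn, had 17.7, 17.3 and 19.2 CPM in JIB-04 hearts and 15.7 and 16.5 CPM in vehicle hearts, separate in the other direction. The other 3 separate genes were Tbx1 and Meis1, with JIB-04 libraries above, and Tbx3, with JIB-04 libraries below. The 5 partners not tested, Gata5, Hand1, Nkx2-6, Isl1 and Irx6, had at most 0.256 CPM in any library, beside a value of 0.0804 to 0.0977 CPM for 3 reads. Hand1, the close relative of Hand2, was at 0 to 0.0537 CPM.

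Among the regulators that connect these factors to calcium signals, none of the 4 class IIa histone deacetylase genes, which repress MEF2, and none of the 4 NFAT genes passed. Hdac5 had 123, 93.1 and 99.1 CPM in JIB-04 hearts and 112 and 120 CPM in vehicle hearts, and Hdac9 had 49.3, 34.0 and 28.2 CPM in JIB-04 hearts and 31.1 and 29.9 CPM in vehicle hearts. Both overlapped. Nfatc3 had 41.4, 40.6 and 42.6 CPM in JIB-04 hearts and 40.1 and 38.7 CPM in vehicle hearts, and Nfatc1 had 33.1, 34.4 and 37.9 CPM in JIB-04 hearts and 31.0 and 33.1 CPM in vehicle hearts. Nfatc3 was separate between the groups by a small margin and Nfatc1 was not.

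Genes known as targets of the factors were counted in 3 lists, none with a member past the threshold. Of 20 targets of GATA factors, NKX2-5 and T-box factors, 7 had positive and 13 negative log2 differences, the median was -0.08, and 0 were separate between the groups, beside 22.8% of all genes. The median was -0.02 scaled to the library total, -0.14 without JIB-04 replicate 1, -0.04 when either JIB-04 replicate 2 or vehicle replicate 2 was left out. Corin, the protease that processes natriuretic peptides, had 250, 182 and 255 CPM in JIB-04 hearts and 249 and 320 CPM in vehicle hearts. Adora1, an adenosine receptor gene, had 13.9, 13.4 and 17.8 CPM in JIB-04 hearts and 16.9 and 18.5 CPM in vehicle hearts. These were the members with the smallest p in that list, and both overlapped.

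Of 15 MEF2 targets, 2 had positive and 13 negative values, with a median of -0.13, and 2 were separate, both with JIB-04 below, as were 12% of all genes. Mb, which encodes myoglobin, had 10036, 9179 and 10237 CPM in JIB-04 hearts and 10434 and 12172 CPM in vehicle hearts. Myom1, which encodes the M-band protein myomesin, had 2599, 2416 and 2510 CPM in JIB-04 hearts and 2673 and 2964 CPM in vehicle hearts. The median of this list was -0.06 without vehicle replicate 2, -0.21 without vehicle replicate 1 and -0.08 scaled to the library total. All 10 cardiomyocyte markers had negative values as well, with a median of -0.16, and how far the MEF2 target values follow them was not tested.

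Of 16 SRF targets, which include Srf itself, 8 had positive and 8 negative values, with a median of 0.02, and 2 were separate, both with JIB-04 below, as were 12% of all genes. The sign of this median was not stable: leaving out 1 library gave -0.06 (JIB-04 replicate 3) to 0.09 (JIB-04 replicate 1). Vcl, which encodes the adhesion protein vinculin, had 298, 256 and 286 CPM in JIB-04 hearts and 317 and 327 CPM in vehicle hearts (log2 difference -0.20, SE 0.08, limma adjusted p = 0.767). Smtn, which encodes smoothelin of smooth muscle, had 110, 104 and 106 CPM in JIB-04 hearts and 119 and 112 CPM in vehicle hearts.

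**Figure D5:**
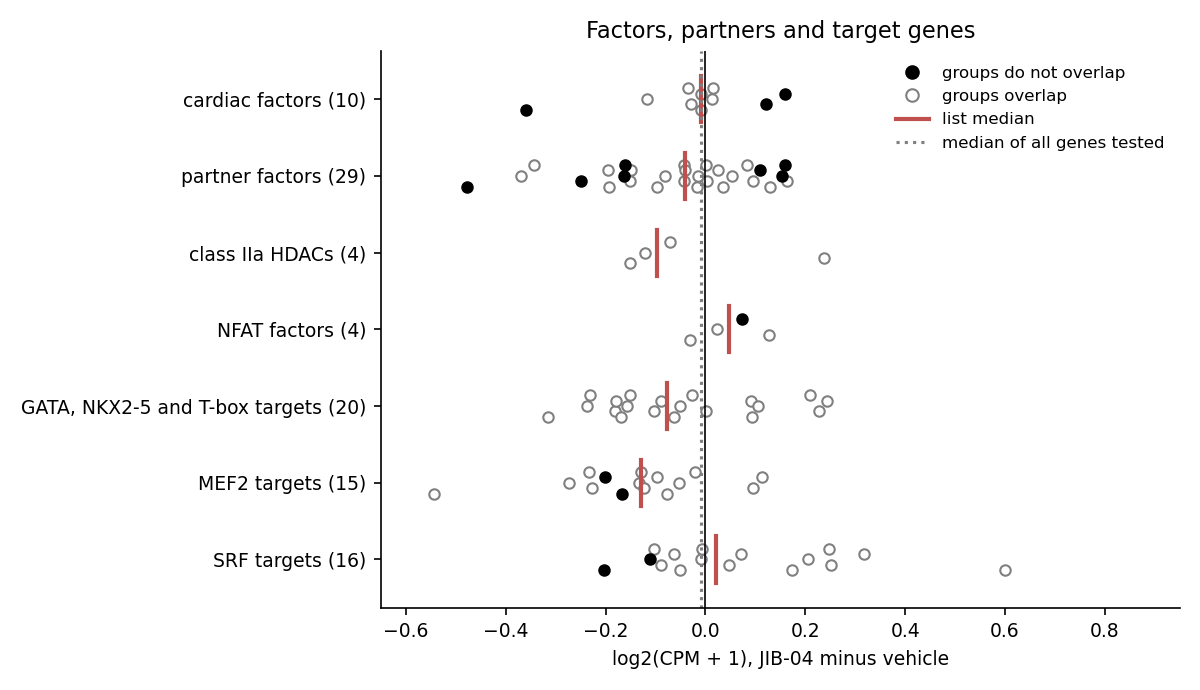
Each point is 1 gene at its log2(CPM + 1) difference, JIB-04 minus vehicle; filled points are genes whose groups did not overlap, red bars are list medians and the dotted line is the median of all genes tested. Numbers in parentheses are genes tested. Of the 10 factors, Hand2, Gata4 and Tbx20 are the filled points, and the MEF2 targets have the lowest median, at -0.13.

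The genes most like Hand2 in profile over the 5 libraries, by the root mean square difference of centred log2(CPM + 1) values among 10553 genes, were Per2 (0.0271) and Mlxipl (0.0307), beside a root mean square of 0.229 for Hand2 itself. Per2, a circadian clock gene, had 49.9, 44.2 and 59.9 CPM in JIB-04 hearts and 65.2 and 65.8 CPM in vehicle hearts. Mlxipl, the carbohydrate response factor gene, had 29.4, 26.4 and 36.8 CPM in JIB-04 hearts and 37.7 and 40.5 CPM in vehicle hearts. Both have JIB-04 replicate 2 the lowest and JIB-04 replicate 3 the nearest to vehicle, as Hand2 does. This follows from their choice by likeness to Hand2 among many genes over only 5 libraries. Whether they are related to Hand2 was not tested. The nearest to Tbx20 were Rftn2 (0.0192) and Cox6a1 (0.0205), and the nearest to Gata4 were Ifi35 (0.0185) and Elf1 (0.0198), beside own values of 0.0924 and 0.0769.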

How the data were processed

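Heart RNA from calcineurin transgenic mice was measured in 3 JIB-04 and 2 vehicle libraries, grouped by the treatment label. Per the labels' protocols, Trizol was used for extraction and a strand-specific mRNA kit for the libraries. The submitters' processing notes name build mm10 and the tools edgeR, Subread, featureCounts, TopHat2 2.0.12, FastQC 0.11.2 and Picard 1.127, without their roles; the strand setting of counting is not given in the sources used here. The deposited value is a normalised signal named CPM by the authors, per the file headers, and no raw count was used. Its steps gave whole reads, 100% of values within 0.01 of a whole number and none further than 0.00017, so the depth behind each value is known. One row without a gene name was left out.

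The main test was limma 3.58.1 (R 4.3.3) with a trend on log2(CPM + 1), which understates changes of low genes, over 14414 genes kept by edgeR's filter (minimum count 10, total 15), with 3 residual degrees of freedom and Benjamini-Hochberg adjustment. The count tests on recovered reads (edgeR 4.0.16 quasi-likelihood, DESeq2 1.42.0, limma-voom), other pseudocounts, filters and scalings, a replicate block and leaving out each library were alternatives. edgeR called 0 genes on the recovered reads. limma called 0 genes, with 928 at an unadjusted p under 0.05. The fits were also run on simulated data, with the same setting of the spread for every gene, as a check that they work. That run does not measure how well differences as small as those of the factors are detected in these libraries. Exact permutation tests were two-sided.

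Starts in the files count from 0, and 1 was added. Exon lengths came from GENCODE on the same build, promoters from RefSeq. The members and lists were chosen with earlier results of these data known. From each list the genes separate between the groups were named, up to 4 by smallest p, or else the 2 genes with the smallest p. The genes nearest in profile to Mef2a are not reported here.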

Additional observations from a re-analysis of the deposited data

How the results depend on the processing

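None of the 10 factors passed the threshold under any of 15 alternatives. Gata4 (0.08 to 0.17), Tbx20 (0.09 to 0.23), Hand2 (-0.49 to -0.27) and Gata6 (-0.19 to -0.02) kept their sign in all 15. Their smallest adjusted p-values were 0.474, 0.262, 0.278 and 0.519, all in limma without JIB-04 replicate 1. The 15 are not independent checks of sign, since the filters leave a log2 difference as it is. The replicate block also gave the same differences as leaving out JIB-04 replicate 3. The genes past the threshold over all genes numbered 84 with DESeq2 (68 higher, 16 lower) and 0 to 29 when 1 library was left out, the 29 (27 higher, 2 lower) without JIB-04 replicate 1. The cause was not tested.

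Factors close to 0 changed sign. Nkx2-5 was 0.0028 with edgeR, 0.0022 with DESeq2, 0.0020 with limma-voom, 0.042 scaled to the library total and 0.00041 with median-ratio factors. Srf was 0.0068, 0.0060, 0.0017, 0.044 and 0.0013 in the same settings. Scaled to the library total, Tbx5 was 0.021, Mef2a was 0.017 and the partner factors' median was 0.010. Leaving out 1 library gave -0.065 to 0.046 for Nkx2-5, -0.067 to 0.064 for Srf, -0.107 to 0.113 for Tbx5, -0.073 to 0.018 for Mef2a, -0.065 to 0.088 for Mef2c, -0.017 to 0.068 for Mef2d and -0.050 to 0.087 for the log2 ratio of Mef2c to Mef2d. The ratios' alternatives and the overlap by scaling were chosen after seeing the data.

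The labels do not say that replicate numbers pair the libraries. Deviations of same-numbered libraries correlated at -0.13 for both numbers, over genes. The 2 vehicle libraries deviate from their mean by equal and opposite amounts, so these values are not separate checks of a pairing. With 3 against 2 libraries nothing was crossed. Only JIB-04 has a replicate 3, so the replicate block gave the same differences as leaving that library out. With the block, 0 genes passed, Hand2 was -0.49, Mef2d was -0.0081 and the SRF targets' median was -0.06. The 5 partner factors that were not tested had almost no reads, and the reason for this was not tested.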

Other observations

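The genes nearest in profile to 6 further factors over the 5 libraries, by the same measure as for Hand2, were Calr3 and Fasn for Gata6, 1110038F14Rik and Dnajb2 for Nkx2-5, Traf5 and Plscr2 for Tbx5, Ptgr2 and Sync for Mef2c, Smek1 and Ccdc66 for Mef2d, and Ptpn21 and Anxa4 for Srf.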
